A study of Mus musculus with 2 samples.

Results

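The genes described here encode proteins of the junctions that join cells of the retinal pigment epithelium (RPE), the pigmented monolayer between the photoreceptors and the choroid. They were chosen by name as 10 rows of the deposited matrices, out of 27998 listed genes, namely the claudins Cldn10, Cldn19 and Cldn2, the tight junction genes Tjp1, Ocln and Cgn, the cadherins Cdh1, Cdh2 and Cdh3, and the gap junction gene Gja1. All 10 were found among the gene names. Single cells came from 2 male C57BL/6J mice, R1 and R2, with no treatment given in the labels, and both eyes of a mouse were pooled, so that each mouse gave 1 library and the mouse is the replicate. The age is postnatal day 36 in the methods and 4 to 5 weeks in the labels. Cells were freed from the eyecup by trypsin, an enzyme that also cuts junction proteins at the cell surface, and sorted as calcein-positive and DAPI-negative before droplet-based sequencing of the 3′ ends of transcripts, each tagged with a unique molecular identifier (UMI).

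Epithelial cells are held together by several kinds of junction. Tight junctions seal the space between neighbouring cells, and claudins set which ions and how much water pass there, while occludin and the cytoplasmic scaffolds zonula occludens-1 and cingulin tie the seal to the actin cytoskeleton. Adherens junctions are built on cadherins, which bind the same cadherin on the next cell and are linked to actin through catenins. Gap junctions are channels of connexins that let ions and small molecules pass from cell to cell. In the RPE, tight junctions form the outer blood-retinal barrier, and the layer is known for P-cadherin at its adherens junctions and for coupling through connexin 43.

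Cells with at least 500 genes and at most 5% mitochondrial UMIs were kept after removal of likely doublets, 2671 in R1 and 2848 in R2. They fell apart by their share of UMIs from Ttr, which encodes the transport protein transthyretin and is among the most abundant transcripts of the RPE. Ttr-high cells, with 5% or more, numbered 2612 in R1 and 2829 in R2. Ttr-low cells, with less than 3%, numbered 59 and 19, and 0 cells lay between these bounds in both mice. Ttr-high cells had 23858655 and 26888976 UMIs in total (median 8433.5 and 7689 per cell), and Ttr-low cells 192400 and 91115 (median 3200 and 3836). All Ttr-high cells of both mice held UMIs of at least 3 of 6 markers of mature RPE, as did 47 of 59 and 13 of 19 Ttr-low cells, where the summed level of these markers was 34.3 and 23.2 per 10000 against 386.6 and 436.4 in Ttr-high cells. Of the Ttr-low cells, 53 of 59 and 16 of 19 held at least 3 of 8 markers of Pax6- and Dkk3-expressing pigment cells, as did 58.7% and 41.3% of Ttr-high cells, with summed levels of 275.1 and 188 against 14.1 and 9.57. Neither list thus separated the cells by presence alone. Among Ttr-low cells, 3 and 2 held at least 3 fibroblast markers and 2 and 1 at least 3 microglial markers. The libraries shared 12 cell barcodes, which were left in.

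The level of a gene is the mean over cells of its UMIs per 10000 UMIs, or, where sums are named, its summed UMIs per 10000 summed UMIs. A transcript gives UMIs from its 3′ end whatever its length, so levels were not divided by length, and genes may still differ in how well they are captured. Intervals are exact 95% intervals, Poisson for sums, Clopper-Pearson for shares of cells and conditional binomial for ratios, and they cover counting error only. Values of the mice are set side by side, since 1 library per mouse allows no test between them.

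The upstream sequences of a gene lower and a gene higher in Ttr-low than in Ttr-high cells of both mice are shown first. Cdh3, which was lower too, had no entry, nor had Cdh1 and Cdh2. These are the 250 bases before the RefSeq start of Cldn10 (chr14:118787621-118787870, plus strand) and of Gja1 (chr10:56377050-56377299, plus strand) in GRCm38.p6, 5′ to 3′, with capitals for matches on either strand to CACGTG or CATGTG, E-box forms bound by MITF-type factors, or to TAATCC, a motif of OTX factors.
Cldn10: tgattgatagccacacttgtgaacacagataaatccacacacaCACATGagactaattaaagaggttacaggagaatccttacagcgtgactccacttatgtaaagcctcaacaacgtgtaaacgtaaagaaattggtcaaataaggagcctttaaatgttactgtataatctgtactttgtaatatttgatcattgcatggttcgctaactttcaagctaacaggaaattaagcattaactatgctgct
Gja1: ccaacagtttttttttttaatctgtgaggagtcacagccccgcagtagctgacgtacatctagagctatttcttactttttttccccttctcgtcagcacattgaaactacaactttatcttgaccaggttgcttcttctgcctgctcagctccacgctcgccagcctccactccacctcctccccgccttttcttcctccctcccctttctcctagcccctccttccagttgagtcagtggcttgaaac
The stretch before Cldn10 held 1 match, CACATG, the reverse complement of CATGTG, at -207 to -202 from the start, and the stretch before Gja1 held 0. Among 32851 RefSeq promoters cut to the same length, 6.02% held CACGTG, 12.2% CATGTG and 6.25% TAATCC, and the motifs share no overlapping match here. Of the other genes, Cldn19, Cldn2, Tjp1, Ocln and Cgn also had an entry, and among these Cgn held 1 match to CACGTG and the others 0. GC content of the printed stretches was 36% for Cldn10 and 50% for Gja1. A gene can start at several sites, and 3′ counts do not show which start was used.

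In Ttr-high cells, a P-cadherin and connexin 43 profile led the list. Cdh3, Gja1, Cldn10 and Cldn2 together held most of the UMIs of the 10 genes, Cgn, Cdh2, Ocln and Tjp1 were found at low levels, Cldn19 was found as 1 UMI, and Cdh1 was not found. The order of the levels was the same in both mice down to Cgn.

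Cdh3 (ENSMUSG00000061048, chromosome 8, 106510891 to 106557297, GRCm38) encodes P-cadherin. Its level was 1.74 UMIs per 10000 in R1 and 1.46 in R2, which placed it at rank 731 of 15545 genes with a UMI in R1 and 864 of 15301 in R2. At least 1 Cdh3 UMI was found in 59.0% of Ttr-high cells of R1 (57.0 to 60.9%) and in 47.65% of R2 (45.8 to 49.5%). Single cells reached 17 and 16 UMIs, and 172 cells of R1 and 220 of R2 held 5 or more. Cdh3 made up 36.1% and 35.5% of the UMIs of the 10 genes.

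Cdh1 (chromosome 8, 106603351 to 106670246), which encodes E-cadherin, lies 46053 bases beyond the end of Cdh3 on the same strand. Not a single Cdh1 UMI was found in Ttr-high or Ttr-low cells of either mouse. A count of 0 among 2612 and 2829 Ttr-high cells allows a share of cells with a UMI of up to 0.141% in R1 and 0.130% in R2. The neighbouring cadherins thus stood at opposite ends of the order of levels. Cdh2 (chromosome 18, 16588877 to 16809246), which encodes N-cadherin, was in between, with a level of 0.116 in R1 and 0.105 in R2 and a UMI in 9.04% and 6.96% of Ttr-high cells. An annotated antisense gene overlaps Cdh2, and whether the authors counted by strand is not given in the sources used here.

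Gja1 (ENSMUSG00000050953, chromosome 10, 56377330 to 56402513) encodes connexin 43. Its level in Ttr-high cells was 1.22 in R1 and 1.10 in R2, at ranks 1071 and 1167. UMIs of Gja1 were found in 52.45% of Ttr-high cells of R1 (50.5 to 54.4%) and 43.9% of R2 (42.0 to 45.7%). It held 28.0% and 27.5% of the UMIs of the 10 genes.

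Of the 3 claudin genes chosen, Cldn10 (ENSMUSG00000022132, chromosome 14, 118787908 to 118875489), whose product forms ion-selective paracellular pores, was highest. Its level was 0.57 in R1 and 0.627 in R2, with a UMI in 29.2% (27.4 to 31.0%) and 25.6% (24.0 to 27.3%) of Ttr-high cells. Cldn2 (chromosome X, 139800828 to 139811386), which encodes a pore for cations and water typical of leaky epithelia, followed at 0.403 and 0.365, with a UMI in 24.1% and 19.4% of cells. Cldn19 (chromosome 4, 119255414 to 119262438), a claudin best known from kidney tubules and human RPE, had 1 UMI in 1 of 2612 Ttr-high cells of R1 and 0 UMIs in R2. An annotated antisense gene overlaps Cldn19 as well.

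The genes of scaffold and strand proteins were weak. Cgn (chromosome 3, 94760069 to 94786492), which encodes cingulin, was at 0.192 in R1 and 0.183 in R2. Ocln (chromosome 13, 100496507 to 100552718), which encodes occludin, was at 0.122 and 0.0945, and Tjp1 (chromosome 7, 65296165 to 65527781), which encodes zonula occludens-1, at 0.0511 and 0.0529. Tjp1 is overlapped by 3 annotated genes, among them Gm44794 and Gm44792 on its own strand. Whether they affect its count was not tested. UMIs of Tjp1 were found in 3.71% and 3.39% of Ttr-high cells, those of Ocln in 7.43% and 5.55%, and those of Cgn in 12.1% and 10.5%. At this depth, a cell without a UMI of such a gene is not shown to lack its transcript.

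**Figure D1:**
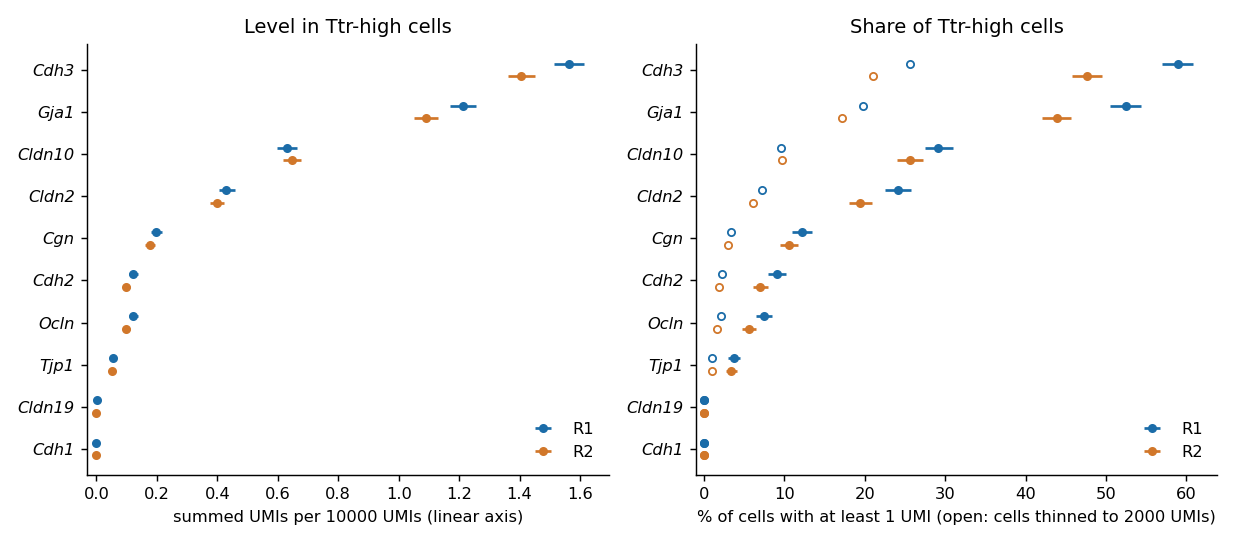
Left, summed UMIs per 10000 UMIs of each gene in Ttr-high cells of R1 and R2 with exact Poisson 95% intervals; right, percent of Ttr-high cells with at least 1 UMI with Clopper-Pearson 95% intervals (filled) and the percent expected when every cell is thinned to 2000 UMIs (open). Cdh3 and Gja1 lie farthest to the right in both mice, and Cldn19 and Cdh1 lie at or next to 0.

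Per summed UMI, the R2 to R1 ratio was 1.03 (0.959 to 1.10) for Cldn10 and 0.927 (0.850 to 1.01) for Cldn2. It was 0.899 (0.859 to 0.941) for Cdh3 and 0.899 (0.854 to 0.947) for Gja1. The ratios of Ocln (0.814, 0.687 to 0.965) and Cdh2 (0.817, 0.689 to 0.968) also had intervals below 1. These intervals hold counting error and no spread between mice. Neighbours in the order, Cdh2 and Ocln, were not separated, with summed levels of 0.121 and 0.122 in R1 and 0.0989 for both in R2.

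Shares of cells with a UMI rise with depth. When every cell was thinned to 2000 UMIs, the expected share was 25.6% in R1 and 21.1% in R2 for Cdh3, 19.8% and 17.1% for Gja1, 9.59% and 9.73% for Cldn10, and 7.18% and 6.06% for Cldn2. The difference between the mice in the share of Cldn10-positive cells was thus not seen at equal depth. The median Ttr-high cell held a UMI of 2 of the 10 genes in R1 and of 1 in R2, and 12.5% and 20.7% of Ttr-high cells held none.

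Levels also moved with the depth of a cell, and not in the same way for each gene. Ttr-high cells were ordered by total UMIs and split into 3 groups of equal size. In R1, the summed level of Cdh3 was 2.11 in the shallowest and 1.28 in the deepest group, a ratio of 0.608 (0.558 to 0.663), with 1.78 (1.68 to 1.88) in the middle group. In R2 it was not level either, with 1.35 (1.23 to 1.48) in the shallowest, 1.71 (1.61 to 1.81) in the middle and 1.28 (1.23 to 1.34) in the deepest group. The level of Cldn10 went the other way in R1, from 0.442 to 0.694, a ratio of 1.57 (1.33 to 1.87), and in R2 the ratio was 1.08 (0.933 to 1.26). For Cldn2, both intervals lay above 1, with ratios of 1.201 (1.002 to 1.45) and 1.43 (1.16 to 1.78). For Gja1, Cgn, Cdh2, Ocln and Tjp1, the intervals held 1 in both mice. Depth of a cell can reflect its size, its state or its capture, and these cannot be told apart here.

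**Figure D2:**
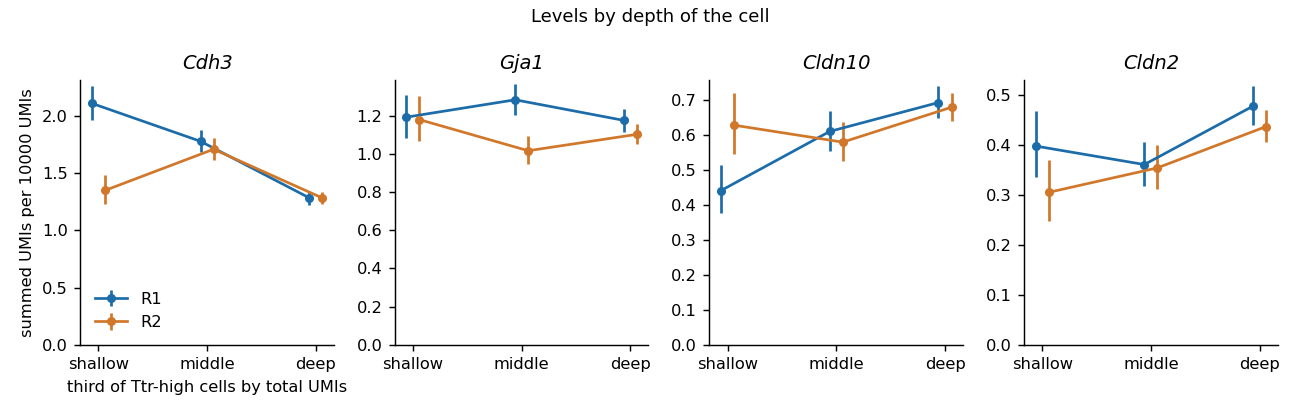
Summed UMIs per 10000 UMIs of Cdh3, Gja1, Cldn10 and Cldn2 in the shallow, middle and deep groups of Ttr-high cells by total UMIs, for R1 and R2, with exact Poisson 95% intervals. Cdh3 drops from 2.11 to 1.28 in R1, while in R2 its middle group, at 1.71, lies above the shallow and deep groups at 1.35 and 1.28.

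Within Ttr-high cells, levels also varied with the share of Ttr, not in the same way for each gene, given here without a test. In the 186 and 371 cells with 15% or more Ttr, the summed level of Gja1 was 0.888 (0.727 to 1.08) in R1 and 0.943 (0.842 to 1.05) in R2, against 1.16 (1.09 to 1.23) and 1.15 (1.07 to 1.24) in cells with 10 to 12%. The level of Cldn2 in these groups was 0.262 (0.178 to 0.372) and 0.311 (0.255 to 0.377) against 0.445 (0.402 to 0.492) and 0.482 (0.430 to 0.538). Cldn10 was at 0.567 (0.439 to 0.720) and 0.498 (0.426 to 0.580) against 0.646 (0.594 to 0.702) and 0.682 (0.621 to 0.748). For Cdh3 the reading depended on the group compared. Against cells with 10 to 12%, it was at 1.36 (1.16 to 1.59) against 1.39 (1.31 to 1.47) in R1. In R2 it was higher, at 1.57 (1.44 to 1.71) against 1.24 (1.155 to 1.33). Among groups under 15%, however, Cdh3 was lowest at 10 to 12% in both mice. Cells with 8 to 10% were at 1.71 (1.604 to 1.824) in R1 and 1.42 (1.26 to 1.601) in R2. Cells with 12 to 15% were at 1.66 and 1.44. Against 8 to 10%, cells with 15% or more were thus lower in R1, while the intervals of R2 overlapped. Against 12 to 15%, the intervals overlapped in both mice. The lowest Gja1 level of R2 was found at the other end, with 0.713 (0.452 to 1.07) in the 31 cells with 5 to 8% Ttr, where R1 had 1.36 (1.14 to 1.61). Ttr itself takes up part of the total. With Ttr left out of the totals, Gja1 at 15% or more was at 1.06 and 1.13, against 1.30 at 10 to 12% in both mice. Groups with 15% or more Ttr also differed in depth, with medians of 5516 and 7500 UMIs against 9364 and 10100 at 10 to 12%.

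The spread over cells beyond UMI sampling was smallest for Gja1 and Cdh3. Expressed as a squared coefficient of variation, it was 0.925 in R1 and 1.63 in R2 for Gja1 and 1.09 and 1.63 for Cdh3. The values were larger for most weak genes, such as 9.47 and 15.2 for Cgn, 9.44 and 27.8 for Ocln and 9.98 and 23.7 for Tjp1. Cdh2, about as weak as Ocln, was at 3.0 in R1, below the 4.73 of the stronger Cldn2 in R2. A few cells carried many UMIs of a weak gene. In R2, 1 cell with 11961 UMIs held 17 of the 266 Cdh2 UMIs, and without it the value for Cdh2 was 11.8 in place of 16.7. In R1, 1 cell held 16 of the 469 Cgn UMIs. These 2 cells had Ttr at 14.1% and 11.9% of their UMIs, within the range of the other Ttr-high cells.

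Whether genes of the junctions rose and fell together from cell to cell was described by Pearson's r of ln(1 + UMIs per 10000), without a test, since cells of a library share its preparation and r grows with depth. Over the 28 pairs of the 8 genes with more than 100 UMIs, the median r was 0.00497 in R1 and 0.00762 in R2, with ranges from -0.0367 to 0.0747 and from -0.0387 to 0.052. The median over all 12617776 pairs of the 5024 genes found in at least 10% of Ttr-high cells of both mice was 0.0119 in R1 and 0.015 in R2. Cdh2, Ocln and Tjp1 were found in fewer cells than that. Over the 10 pairs of the 5 genes that meet the same 10% minimum, the median was 0.00449 in R1 and 0.0128 in R2. The median over the 28 pairs changed with the measure, to -0.00711 and -0.0045 after thinning of each cell to 2000 UMIs and to 0.015 and 0.0399 with Spearman's rho. With the variance from UMI sampling taken out, a measure chosen after seeing the data, it was -0.0116 and -0.00958. After thinning, the median over all pairs of the 5024 genes was -0.00034 in R1 and -0.000397 in R2. Among the 28 pairs, the highest value in R1 was that of Cldn10 and Cldn2, at 0.0747, with 0.0408 in R2. After thinning it was 0.00314 in R1 and -0.0254 in R2. Spearman's rho of this pair was 0.124 and 0.0997, and r with the sampling variance taken out was 0.106 and 0.0197. Cdh3 and Gja1, the strongest pair, had an r of 0.00653 and 0.011. Cdh3 and Cldn10 were at -0.0367 and -0.0387, and at -0.0283 and 0.01 after thinning. In counts this sparse, values near 0 do not show that genes vary independently.

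**Figure D3:**
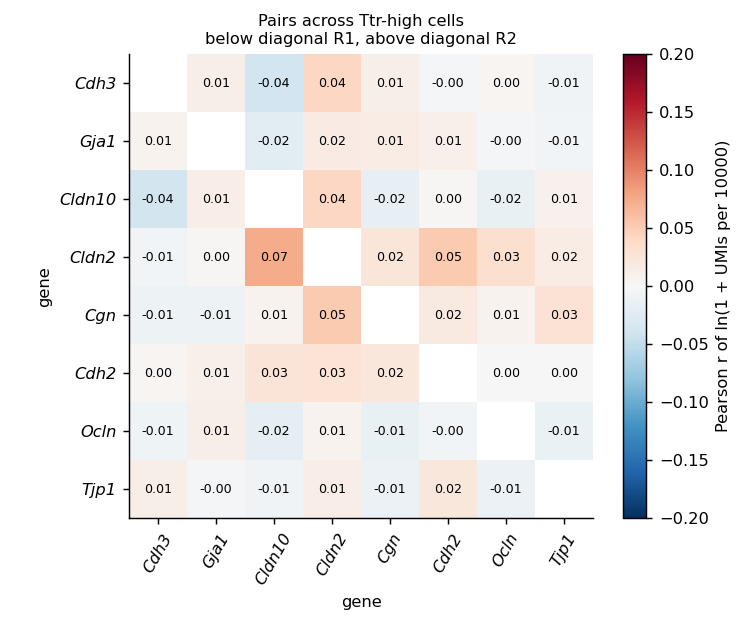
Pearson's r of ln(1 + UMIs per 10000) for each pair of the 8 genes with more than 100 UMIs, over 2612 Ttr-high cells of R1 (below the diagonal) and 2829 of R2 (above it). All values lie between -0.0387 and 0.0747, and the darkest red square is Cldn10 with Cldn2 in R1.

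For each of the 4 strongest genes, the genes with the highest mean r of both mice were named among the same 5024 genes. For Cdh3 these were the mitochondrial gene mt-Cytb (r of 0.198 in R1 and 0.098 in R2), the transcription factor gene Myrf (0.158 and 0.134) and Timp3 (0.171 and 0.119), which encodes an inhibitor of metalloproteinases in Bruch's membrane. For Gja1 they were Degs1 (0.165 and 0.0723), Cpe (0.152 and 0.0597) and Psap (0.182 and 0.0198). For Cldn10 they were the visual cycle genes Rdh5 (0.194 and 0.101) and Rgr (0.202 and 0.0888) and Igfbp2 (0.171 and 0.0897). For Cldn2 they were Sulf1 (0.104 and 0.0674), Clic6 (0.09 and 0.0765) and Igfbp2 (0.117 and 0.0471). After thinning, all of these values were lower, with 0.138 and 0.0781 for Cdh3 and mt-Cytb, and 0.0802 and 0.0489 for Cldn10 and Rdh5.

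Other genes of tight, adherens and gap junctions and desmosomes were read from a list of 72 genes in the files. In Ttr-high cells, 3 of them had a mean level of 1 or more, 26 lay from 0.1 to 1, 43 lay below 0.1, and 16 of these 43 had 0 UMIs in both mice. The highest were the catenin genes Ctnna1 (2.16 in R1 and 1.84 in R2) and Ctnnb1 (1.62 and 1.33), which link cadherins to actin, and Jam3 (0.97 and 1.31), which encodes a junctional adhesion molecule. Cldn1 followed at 0.958 and 0.831, above Cldn10 and Cldn2, and was thus the claudin gene with the highest level among those listed. Crb3, a polarity gene, was at 0.784 and 0.703, and Ildr2, Ctnnd1, Plekha7 and Amotl2 had means from 0.453 to 0.607. The genes at 0 included Cldn16, the partner of claudin-19 in the kidney, and Gjd2, which encodes the connexin of neuronal gap junctions.

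Ttr-low cells were compared with Ttr-high cells to see which junction genes change in the cells with little of the dominant RPE transcript, where Ttr made up 0.632% (R1) and 0.391% (R2) of UMIs in the median cell. Gja1 was higher in Ttr-low cells, Cdh3 and Cldn10 were lower, and the call of Cldn10 rests on 0 UMIs. UMIs were summed per mouse over each kind of cell, which gave 4 libraries, and tested with edgeR's quasi-likelihood test blocked by mouse, with p-values adjusted after Benjamini and Hochberg over the 11482 genes that passed the filter on low counts. Of these, 1201 (10.5%) had an adjusted p under 0.05, 488 (4.25%) higher and 713 (6.21%) lower in Ttr-low cells. The filter kept 8 of the 10 genes, all but Cldn19 and Cdh1, and 3 of the 8 were called, 1 higher and 2 lower. Of the 11482 genes, 1484 had 0 UMIs in Ttr-low cells of both mice, Cldn10 and Tjp1 among them. Such genes passed the filter only through Ttr-high cells and could only be called lower. Counts of higher and lower calls are thus not on an equal footing. The median log2 fold change of all tested genes was -0.34 under the TMM scaling used and 0.37 with library size alone, so log2 fold changes are also given relative to this median. In bulk sums, fewer cells with a transcript and less of it per cell cannot be told apart. Cells with a UMI are therefore given too for the called genes of the 10 and for other junction genes called higher.

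Gja1 had 189 UMIs in the 59 Ttr-low cells of R1 and 77 in the 19 of R2, against 23.3 and 9.93 that the level of Ttr-high cells would give at this depth. Its summed level was 9.82 (8.47 to 11.3) per 10000 in Ttr-low and 1.21 (1.17 to 1.26) in Ttr-high cells of R1, a ratio of 8.11 (6.96 to 9.40). In R2 it was 8.45 (6.67 to 10.6) and 1.09 (1.05 to 1.13), a ratio of 7.76 (6.10 to 9.73). The intervals of the groups lay far apart in both mice. In edgeR's quasi-likelihood test the log2 fold change came to 2.25, with an SE of 0.348 (adjusted p = 5.55e-09), or 2.59 above the median of all genes, and 2.62 above it with library size alone. At least 1 Gja1 UMI was found in 52 of 59 Ttr-low cells of R1 (88.1%, 77.1 to 95.1%) and in 15 of 19 of R2 (78.95%, 54.4 to 93.95%), although these cells were shallower. At 2000 UMIs per cell, the expected share was 78.3% and 67.2% in Ttr-low and 19.8% and 17.1% in Ttr-high cells. Per cell, the lowest value among Ttr-low cells was 0, the median 8.99 and the highest 46.55 UMIs per 10000 in R1, and 0, 7.05 and 17.15 in R2, so that the cells of both kinds overlapped. With Gja1 at 86.3% and 73.3% of the UMIs of the 10 genes, Ttr-low cells had a junction profile of another composition than Ttr-high cells.

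The rise of Gja1 was spread over the Ttr-low cells with pigment markers. In the 48 and 12 cells with at least 3 markers of Pax6- and Dkk3-expressing pigment cells and fewer than 3 of ciliary epithelium, fibroblasts or microglia, its summed level was 10.9 (9.27 to 12.7) in R1 and 9.89 (7.32 to 13.1) in R2. In the 5 and 4 cells with at least 3 of 6 markers of the ciliary epithelium it was 10.4 (6.60 to 15.6) and 8.23 (5.42 to 11.98). Each of these ciliary-marked cells also held 6 to 8 of the 8 pigment markers. The fibroblast-marked cells held 0 and 1 Gja1 UMIs, and the microglia-marked cells held 0 in both mice. Without cells carrying fibroblast, microglial or other non-epithelial markers, the log2 fold change was 2.41.

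Cdh3 had 14 UMIs in Ttr-low cells of R1 and 3 in R2, against 30.1 and 12.8 at the level of Ttr-high cells. Its summed level was 0.728 (0.398 to 1.22) against 1.56 (1.51 to 1.61) in R1, a ratio of 0.466 (0.254 to 0.782), and 0.329 (0.0679 to 0.962) against 1.41 (1.36 to 1.45) in R2, a ratio of 0.234 (0.0483 to 0.685). In edgeR's quasi-likelihood test the log2 fold change came to -2.12, with an SE of 0.491 (adjusted p = 0.000331), or -1.79 relative to the median of all genes. UMIs of Cdh3 were found in 9 of 59 and 2 of 19 Ttr-low cells. If the Ttr UMIs of Ttr-low cells came with other RNA of Ttr-high cells in proportion, 1.95 and 0.40 Cdh3 UMIs would have come with them, and with such RNA subtracted the log2 fold change was -2.29.

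Cldn10 had 0 UMIs in Ttr-low cells of both mice, against 1502 and 1740 in Ttr-high cells. At the level of Ttr-high cells, 12.1 and 5.90 UMIs would have been found at this depth. With a floor of 3 UMIs per library, Cldn10 was at least 4.04-fold lower in R1 and at least 1.96-fold lower in R2. edgeR's quasi-likelihood test called it lower (adjusted p = 3.01e-06), but DESeq2 did not (adjusted p = 0.502), and with 0 UMIs the fitted fold change has no meaning as a size. By the Clopper-Pearson limit, the counts of 0 allow a share of Ttr-low cells with a Cldn10 UMI of up to 6.06% in R1 and 17.65% in R2. These limits hold at the depth of the cells, a median of 3200 and 3836 UMIs. The share of Ttr-high cells was 9.59% and 9.73% at 2000 UMIs, so the limit of R2 does not lie below it.

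The other 5 genes tested were not called, and their UMIs in Ttr-low cells were few. Tjp1 had 0 UMIs in Ttr-low cells, but only 1.06 and 0.458 would have been found at the level of Ttr-high cells. Ocln had 1 and 2 UMIs and Cdh2 4 and 1. For Cdh2 the ratio of Ttr-low to Ttr-high cells was 1.72 (0.464 to 4.44) in R1 and 1.11 (0.028 to 6.24) in R2, and for Ocln 0.428 (0.0108 to 2.40) and 2.22 (0.267 to 8.09). Cgn had 6 UMIs in each mouse, with ratios of 1.59 (0.579 to 3.48) and 3.75 (1.37 to 8.23) and a log2 fold change of 0.53 (SE 0.745). Cldn2 went in opposite directions, with 2 UMIs and a ratio of 0.242 (0.0292 to 0.875) in R1 and 8 UMIs and a ratio of 2.202 (0.948 to 4.36) in R2.

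**Figure D4:**
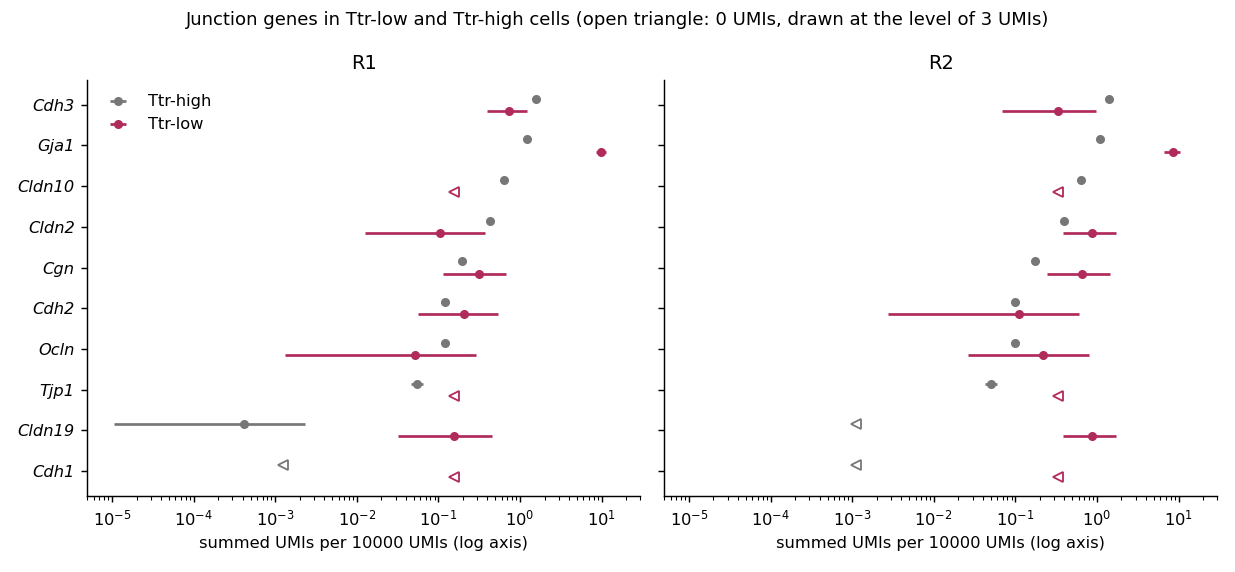
Summed UMIs per 10000 UMIs of each gene in Ttr-high and Ttr-low cells of R1 (left) and R2 (right) on a log axis with exact Poisson 95% intervals; an open triangle marks 0 UMIs and is drawn at the level that 3 UMIs would give. Gja1 in Ttr-low cells lies at 9.82 and 8.45, right of every other value, and the triangles of Cldn10 lie left of its Ttr-high points.

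The Ttr-low UMIs of the claudins Cldn19 and Cldn2 sat in few cells. Cldn19, absent or at 1 UMI in Ttr-high cells, had 3 UMIs in 3 of 59 Ttr-low cells of R1 and 8 UMIs in 3 of 19 of R2. The ratio in R1 was 372 (29.9 to 19530). In R2 the summed level in Ttr-low cells was 0.878 (0.379 to 1.73), 787-fold the level of 3 UMIs in Ttr-high cells. This fold leaves out the counting error of the 8 UMIs and is not a lower limit. Cldn19 did not pass the filter on low counts and was not tested there, and without that filter its adjusted p was 0.00419 in edgeR's quasi-likelihood test, and it was 1.44e-07 in DESeq2. Of the 8 UMIs in R2, 7 were found in 2 of the 4 cells with ciliary epithelium markers, and 1 of these cells, with 13692 UMIs, held 4 UMIs of Cldn19, 7 of the 8 UMIs of Cldn2, both UMIs of Ocln, 2 of Cdh3 and 1 of Cgn. In R1, the cells with ciliary markers held 1 of 3 UMIs of Cldn19, both UMIs of Cldn2, the single UMI of Ocln and 4 of 6 UMIs of Cgn. Ciliary-marked cells were deeper (median 4120 and 7566 UMIs) than the 48 and 12 other pigment-marked cells (3202 and 3777). In R2 they held 32801 of 91115 Ttr-low UMIs. Their summed Cldn19 level was 0.453 (0.0115 to 2.52) in R1 and 2.13 (0.858 to 4.397) in R2. The other pigment-marked cells had 0.132 (0.016 to 0.476) and 0.202 (0.00511 to 1.125), so the intervals overlapped. For Cgn, they did not overlap in R1. Whether depth explains these counts was not tested. Cells with at least 3 ciliary markers were 5 of 59 and 4 of 19 Ttr-low cells and 0 Ttr-high cells, and the summed level of the 6 ciliary markers was 2.65 and 6.91 in Ttr-low and 0.021 and 0.0115 in Ttr-high cells, with Aqp1 at 0 in Ttr-low cells of R1 and Msx1 in those of R2. Without the ciliary-marked cells, an alternative chosen after seeing the data, the log2 fold change of Cldn2 was -3.90, a value that follows from leaving out the cells that held its UMIs. Cgn, with 4 of its 6 Ttr-low UMIs in the cells left out in each mouse, changed sign to -0.75 (adjusted p = 0.842 in edgeR's test). Gja1 (2.22) and Cdh3 (-2.10) changed little.

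**Figure D5:**
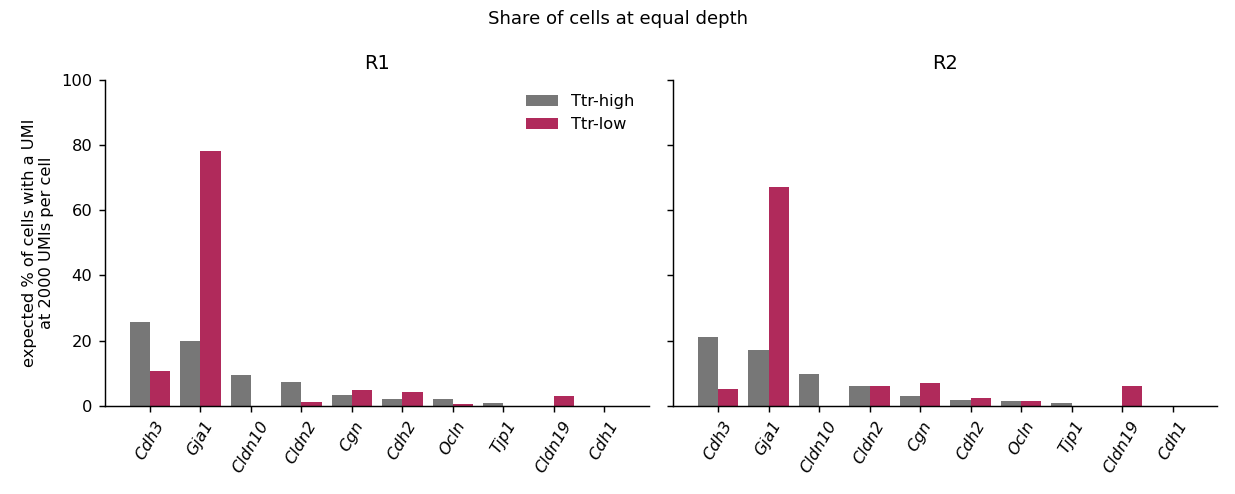
Percent of Ttr-high and Ttr-low cells expected to hold at least 1 UMI of each gene when every cell is thinned to 2000 UMIs, for R1 (left) and R2 (right). Gja1 reaches 78.3% and 67.2% in Ttr-low cells, against 19.8% and 17.1% in Ttr-high cells, and Cldn10 has no bar in Ttr-low cells.

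Of the 72 other junction genes, 45 passed the filter and 9 (20%) were called by edgeR's test, against 10.5% of all genes tested, 4 higher and 5 lower in Ttr-low cells, each in the same direction in both mice. Of the 45, 5 had 0 UMIs in Ttr-low cells of both mice, and Dsp was the only one of these called. The median log2 fold change of the 45 was -0.39, close to the -0.34 of all genes, and 22 of 45 lay above the median of all genes. By kind, 6 of 28 tight junction genes (2 higher, 4 lower), 1 of 12 adherens junction genes (higher), 0 of 2 gap junction genes and 2 of 3 desmosomal genes (1 higher, 1 lower) were called. Of these 2 gap junction genes, 0 had an unadjusted p under 0.05 in edgeR's test, and Gja1 is not among them. At their Ttr-high levels, each would have given at most 1.09 UMIs in Ttr-low cells of R1 and 0.627 in R2. Such counts are too few to show a drop.

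Those higher were genes of junction scaffolds and a nectin. Pkp4, a member of the plakophilin and p120 catenin family, had 54 UMIs in Ttr-low cells of R1 and 39 in R2, with ratios of 11.5 (8.51 to 15.2) and 21.4 (15.0 to 29.6). Cgnl1, which encodes the cingulin-like protein paracingulin, had 25 and 11 UMIs and ratios of 10.2 (6.50 to 15.4) and 17.45 (8.56 to 32.0). Magi1, a tight junction scaffold gene, had 11 and 6 UMIs with ratios of 29.65 (13.85 to 58.1) and 39.4 (13.7 to 92.5). Pvrl3, which encodes nectin-3, had ratios of 5.70 (2.996 to 9.90) and 10.7 (5.07 to 20.0), and without the ciliary-marked cells its call was lost (log2 fold change 1.26, adjusted p = 0.669 in edgeR's test). Pkp4 UMIs were found in 29 of 59 Ttr-low cells of R1 and 13 of 19 of R2. The UMIs of the other genes sat in fewer cells, 16 and 5 for Cgnl1, 7 and 3 for Magi1 and 8 and 3 for Pvrl3.

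Those lower included the strongest claudin gene. Cldn1 had 2 UMIs in Ttr-low cells of R1, 9.09-fold lower (2.51 to 75.1), and 0 in R2, 2.62-fold lower with a floor of 3 UMIs. In R2 the exact upper limit of its Ttr-low level was 0.405, against 0.864 in Ttr-high cells. Dsp, which encodes desmoplakin, had 0 UMIs in Ttr-low cells of both mice, so its call rests on 0 UMIs as well. With the floor of 3 UMIs it was at least 2.48-fold lower in R1 and at least 1.08-fold lower in R2. The exact upper limit of its Ttr-low level was 0.192 in R1, against 0.387 in Ttr-high cells. In R2 this limit was 0.405, above the 0.356 of Ttr-high cells, so R2 alone does not show Dsp as lower. Crb3 (4 and 3 UMIs), Jam3 (9 and 4) and Cxadr (1 and 1), an adhesion receptor gene, were also called. In R1 their ratios were 0.264 (0.0720 to 0.678), 0.464 (0.212 to 0.882) and 0.1355 (0.00343 to 0.757). In R2 the interval lay below 1 for Jam3 (0.333, 0.0906 to 0.853) but held 1 for Crb3 (0.458, 0.0944 to 1.34) and Cxadr (0.3335, 0.00843 to 1.86). With library size alone the calls of Crb3, Jam3 and Cxadr were lost (adjusted p = 0.0979, 0.0739 and 0.163 in edgeR's test). DESeq2 called neither Crb3 nor Cxadr (adjusted p = 0.074 and 0.212), and Cxadr was called under 6 of 11 alternatives. Of the 10 strongest other junction genes, the catenin genes Ctnna1 (44 and 23 UMIs, log2 fold change -0.50) and Ctnnb1 (50 and 32 UMIs, 0.26) were not called, with adjusted p = 0.553 and 0.795 by edgeR's quasi-likelihood test. The result for Ctnnb1 depended on the scaling. Its ratios per summed UMI were 1.59 (1.18 to 2.10) and 2.58 (1.76 to 3.64), and with library size alone it was called higher (log2 fold change 0.99, adjusted p = 0.016 in edgeR's test), as were Amotl1 and Pvrl1.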

How the data were processed

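Per the labels, reads were handled with bcl2fastq 2.20.0.422 and Cell Ranger 1.2.0 on GRCm38 (mm10), and the authors deposited raw UMI counts per gene and cell, whole numbers without normalization. The labels and the paper name different 10x chemistry versions, and SoupX was not used here. Cells with fewer than 500 genes (4 in R1, 0 in R2) or over 5% mitochondrial UMIs (58 and 28) and the 4% with the highest doublet score (111 and 118) were removed. Each cell was scored by how many artificial doublets (25% of profiles) lay among its nearest 1% of profiles in 10 principal components, and 0 Ttr-low cells were removed by it.

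UMIs were summed per mouse over Ttr-low and Ttr-high cells. The sums of a mouse are paired because they come from the same animal, so the mouse is a block. edgeR 4.0.16 (R 4.3.3, TMM, filterByExpr, glmQLFit, glmQLFTest) was the test, with Benjamini-Hochberg adjustment over all genes and a threshold of 0.05. An SE printed with its log2 fold change was worked back from the test, as the absolute fold change divided by the square root of the F statistic. DESeq2 1.42.0 was an alternative. Shares at 2000 UMIs are hypergeometric expectations. The pipeline was tested on simulated data. Coordinates are those of GENCODE for GRCm38.

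The genes, lists and tests were chosen with earlier results of these data known. All 10 genes were named. Of the other junction genes, the 10 with the highest level and those called with the same sign in R1 and R2 (at most 8 in each direction) were named. A result that this rule would name is not reported here. For each of the 4 strongest genes, the 3 most correlated genes were named.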

Additional observations from a re-analysis of the deposited data

How the results depend on the processing

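With 2 mice, leaving one out removes the test, so these settings give values only. The log2 ratios of single mice, as edgeR scales them, ran from -2.77 to 0.20 for Cldn2, from -1.95 to 0.21 for Ocln, from -0.06 to 0.96 for Cgn, from -0.79 to 0.0567 for Cdh2, from -3.04 to -1.82 for Cdh3 and from 2.01 to 2.30 for Gja1. Without the mouse as a replicate block, 2261 genes and 19 other junction genes were called in place of 1201 and 9, and no call of the 10 genes changed. DESeq2 did not call Cldn10 (log2 fold change -6.21, adjusted p = 0.502). Among 1201 genes called, 40.6% were higher in Ttr-low cells, against 73.4% of 1458 with library size alone and 63.2% of 1145 with DESeq2. Library size alone turned the uncalled fold changes of Cdh2 to 0.58 and of Ocln to 0.000227. Cdh2 was also at 0.0506 without cells carrying other markers and at 0.19 without ciliary-marked cells, and without the latter Cgn was at -0.75 and Cldn2 at -3.90, past the threshold, where the cells left out held both Cldn2 UMIs of Ttr-low cells in R1 and 7 of 8 in R2. The ciliary-marked cells also held 4 of the 6 Cgn UMIs of Ttr-low cells in each mouse. The cause of the other changes was not tested. Gja1 and Cdh3 kept their direction and call under all 11 alternatives with a test, with ranges from 2.16 to 2.99 and from -2.29 to -1.41. The sums of Ttr-low cells limit the precision: a gene needs a summed level of 0.156 in R1 and 0.329 in R2 for 3 UMIs.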
